A study of Arabidopsis thaliana with 6 samples.

Results

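The 2 precursors of the microRNA miR319, pri-miR319a and pri-miR319b, were described in 6 libraries in which RNA structure had been probed inside Arabidopsis thaliana leaves. Their positions were all rows of the base-call tables under the amplicon names miR319a and miR319b, which made up 2 of 19 amplicons and 626 of 5550 positions. Their genes are listed for assembly TAIR10.1 as MIR319a (AT4G23713) and MIR319b (AT5G41663). The other amplicons were 14 pri-miRNAs and parts of 3 mRNAs. Of the 626 positions, 294 were an A or a C in the transcribed strand, and 122 of these in miR319a and 123 in miR319b lay inside the primer ends, taken as the first and last 26 nt of each amplicon.

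The libraries came from leaves of plants 3 weeks old and formed 4 groups: chr2 mutant with dimethyl sulfate (DMS, 2 libraries), wild-type Col-0 with DMS (2), chr2 mock (1) and Col-0 mock (1). Col-0 is written Col from here on. DMS was added to 1% for 30 min under vacuum, water took its place in the mocks, and all groups shared the reaction buffer, the quench with mercaptoethanol and the extraction of nuclear RNA. The mutant allele is not given in the sources used here, and the labels do not say that libraries of a group came from separate plants, so that a p-value reflects the spread among these libraries only, which may be technical.

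Plant microRNAs are cut from long hairpin transcripts by a Dicer enzyme working with SERRATE, and the choice of the cutting sites depends on how the hairpin folds. CHR2 (BRAHMA) is a SWI/SNF subunit with ATPase activity that remodels chromatin, and the series title connects it, by way of SERRATE, with the remodelling of pri-miRNAs. The miR319 precursors are known for a long stem that continues above the miRNA and for cutting that starts next to the loop and moves down in steps towards the base, where most plant precursors are cut from the base first. The miRNA represses TCP transcription factors, which limit cell proliferation in the leaf margin, and excess miR319a gives the crinkled leaves of the jaw mutants.

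Both precursors carried the same miRNA, found here as the more 3′ of the 2 longest runs of sequence that both amplicons share. It is shown with its seed (bases 2 to 8) in capitals, because the same 21 bases were read in 2 different hairpins.
miR319: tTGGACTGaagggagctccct
The hairpins are shown from the predicted partner of the miRNA to its last base, with the miRNA in capitals and all bases as the reference letters of the base-call tables give them. Position 1 is the first base of an amplicon, and no genome coordinates are given because the build is not given in the sources used here.
miR319a hairpin, positions 62 to 231: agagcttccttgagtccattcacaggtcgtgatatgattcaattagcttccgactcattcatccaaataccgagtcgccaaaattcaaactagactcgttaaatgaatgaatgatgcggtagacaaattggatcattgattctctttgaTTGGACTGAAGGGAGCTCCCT
miR319b hairpin, positions 72 to 240: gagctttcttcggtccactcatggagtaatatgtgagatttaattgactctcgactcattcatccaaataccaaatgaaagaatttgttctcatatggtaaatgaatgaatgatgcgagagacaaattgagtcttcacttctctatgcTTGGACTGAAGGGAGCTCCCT

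The minimum free energy fold (ViennaRNA) put the miR319a amplicon at -92.5 kcal/mol and the miR319b amplicon at -114.2 kcal/mol. In miR319a the hairpin of 170 nt had 71.8% of its bases paired, a terminal loop of 16 nt and stem arms of 58 and 57 nt between the miRNA duplex and the loop. In miR319b the hairpin of 169 nt had 76.9% of its bases paired, a terminal loop of 4 nt and arms of 66 and 61 nt. Besides the miRNA, the loop-proximal stem held 2 longer runs that are identical in both precursors and absent from the other 17 amplicons, shown because their bases can be compared one by one.
Shared block of the 5′ arm: cgactcattcatccaaatacc
Shared block of the 3′ arm: taaatgaatgaatgatgcg
The block of the 5′ arm lay at positions 112 to 132 of miR319a and 123 to 143 of miR319b. That of the 3′ arm lay at positions 161 to 179 of miR319a and 170 to 188 of miR319b, with 31 nt between it and the miRNA in each precursor. In each fold 14 nt of the first block paired with the second.

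DMS methylates the pairing face of unpaired A and C, and the reverse transcriptase used here reads through the methyl group and leaves a mismatch. The mismatch rate, the share of A, C, G and T calls that differ from the reference base, is the measure used throughout and is given in percent, with the values of a DMS group in the order of its libraries 1 and 2. Median coverage per position of miR319a was 84804.5 and 63167 in the chr2 DMS libraries and 80848 and 61288 in the Col DMS libraries, against 40700 in the chr2 mock and 66105 in the Col mock. For miR319b it was 26589.5 and 17536 in chr2 with DMS and 45697.5 and 32734 in Col with DMS, against 26046 and 26860.5 in the chr2 and Col mocks. No position of either precursor fell below 7561 calls in a DMS library. Reads come from PCR without molecular identifiers, and the products were mixed in equal amounts, so coverage says nothing of abundance and the intervals given here cover counting error only.

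The precursors differed in how the mismatch signal of the DMS libraries was spread. In miR319a a few positions carried nearly all of it, and most of those were high in a single library. In miR319b it was spread over many positions at moderate rates, and some of them were high in every DMS library. The mean rate over A and C positions of miR319a was 1.97% and 0.863% in the chr2 DMS libraries and 1.83% and 0.929% in the Col DMS libraries, against 0.0906% in the chr2 mock and 0.0793% in the Col mock. The median over the same positions was between 0.0325% and 0.0384% with DMS, against 0.0387% and 0.0357% in the chr2 and Col mocks, so the typical position stayed at the mock level. In miR319b the mean was 1.13% and 1.11% in chr2 with DMS and 1.01% and 1.04% in Col with DMS, against 0.0983% and 0.106% in the chr2 and Col mocks. Its median was 0.0494% and 0.186% in chr2 and 0.194% and 0.0388% in Col, against 0.0359% and 0.0337% in the chr2 and Col mocks. The median of miR319b thus differed between replicates of both genotypes by more than it differed between the genotypes, whereas its mean hardly moved. The mean over G and T positions of miR319a was 0.198% and 0.787% in the chr2 DMS libraries and 0.0471% and 0.190% in those of Col. The chr2 and Col mocks had 0.0920% and 0.104%. In chr2 library 2 the G and T mean came near the A and C mean of 0.863%, through a T at 99.9%. In miR319b it was 0.167% and 0.128% in chr2 and 0.202% and 0.180% in Col, against 0.105% and 0.104% in the mocks. What raised positions in a single library was not tested.

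The 3 highest positions of miR319a held 85.2% and 95.2% of its summed A and C rate in the chr2 DMS libraries and 83.4% and 61.4% in those of Col. In miR319b the 3 highest held 27.1% and 15.5% in chr2 and 14.5% and 32.2% in Col. Over the other 14 pri-miRNAs the median of this share was 23.2% to 24.2% in the 4 libraries, with a highest value of 92.8%, and in the mRNAs it was 4.82% to 8.91%. Among the 16 pri-miRNAs, miR319a ranked between 1 and 4 for this share and miR319b between 8 and 13. A rate of 1% was passed by 6 and 1 positions of miR319a in chr2 and by 9 and 6 in Col, and by none in the mocks. In miR319b it was passed by 27 and 44 positions in chr2 and by 40 and 19 in Col, against 1 and 2 in the chr2 and Col mocks. The libraries of miR319b with fewer such positions had them at higher rates: their median was 3.92% over 27 positions and 2.51% over 44 in chr2, and 2.04% over 40 and 5.37% over 19 in Col. The remaining positions of miR319a, those at or below 1%, averaged 0.0478% and 0.0445% in chr2 and 0.0608% and 0.0464% in Col, against 0.0906% and 0.0793% in the chr2 and Col mocks.

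**Figure D1:**
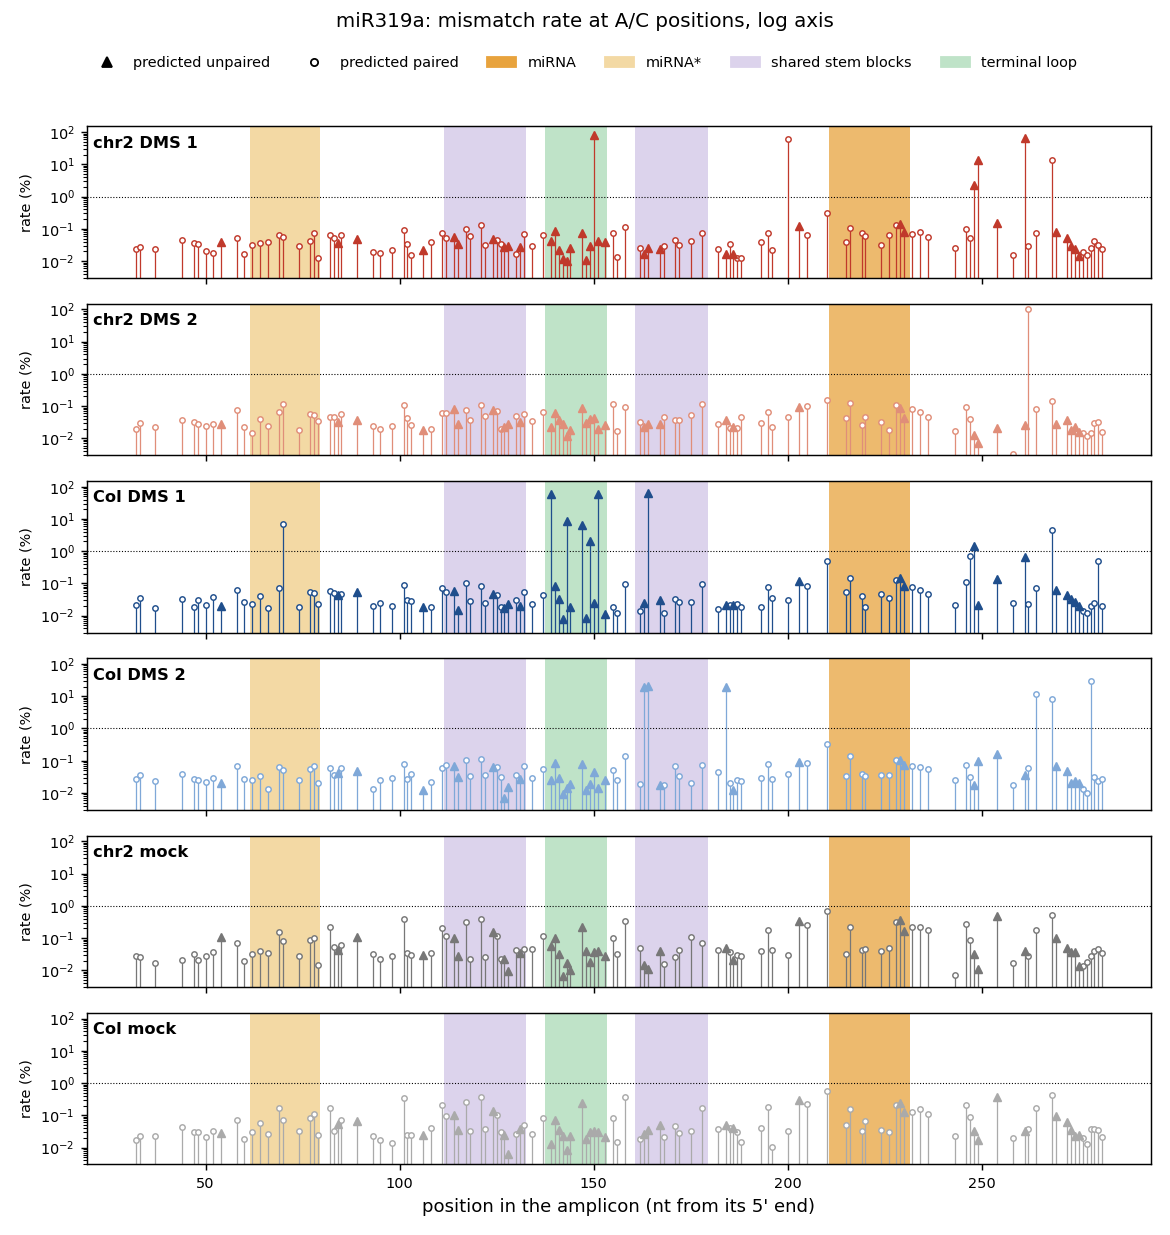
Mismatch rate (percent, log axis) of the A and C positions of miR319a inside the primer ends, by position in nt from the 5′ end of the amplicon, with a panel for each library. Filled triangles are positions predicted unpaired, open circles those predicted paired, shaded bands mark the miRNA, miRNA*, shared stem blocks and terminal loop, and the dotted line is 1%. In chr2 DMS library 2 a single position stands above the line, and the tall positions of the other DMS libraries are mostly different ones.

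In miR319a, 18 positions passed 1% in at least 1 DMS library, of 122. They were taken up mostly by the terminal loop, where 6 of 12 positions passed, and by the 3′ side of the amplicon beyond the miRNA, where 7 of 25 passed. In the loop-proximal stem 4 of 56 passed, in the miRNA* 1 of 9, and in the miRNA and the 5′ side of the amplicon none of 9 and 11. The loop is shown with its A and C in capitals.
miR319a terminal loop, positions 138 to 153: gCCAAAAttCAAACtA
Position 150, an A of this loop, had a rate of 78.9% and 0.0438% in the chr2 DMS libraries and 0.0246% and 0.0436% in the Col DMS libraries, against 0.0359% and 0.0319% in the chr2 and Col mocks. Its neighbour 151, a C, had 0.0418% and 0.0191% in chr2 and 61.5% and 0.0141% in Col. Position 139, a C at the other end of the loop, had 0.0419% and 0.0222% in chr2 and 60.2% and 0.0254% in Col. Adjacent loop bases were thus high in different libraries, 5 of the 6 in Col library 1 and the sixth in chr2 library 1, while the second library of each genotype had no loop position above 1%.

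The tallest position of miR319a lay outside the hairpin. Position 262, an A that the fold pairs, had 0.0302% and 99.9% in the chr2 DMS libraries and 0.0225% and 0.0612% in the Col DMS libraries, against 0.0284% and 0.0371% in the chr2 and Col mocks. Nearly every call at this base in chr2 library 2 was therefore a mismatch, and in all others nearly none was. Position 261 beside it had 64.5% and 0.0262% in chr2 and 0.649% and 0.0362% in Col, and position 278 had 0.0251% and 0.0142% in chr2 and 0.0193% and 30.2% in Col. In the stem, position 200, a paired A of the 3′ arm, had 61.0% and 0.0475% in chr2 and 0.0313% and 0.0400% in Col. Position 184, an unpaired A of the same arm, had 0.0169% and 0.0364% in chr2 and 0.0214% and 19.1% in Col. Each of these was high in 1 of 4 DMS libraries.

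Position 268, a C beyond the miRNA, passed 1% in 3 of 4 DMS libraries, more than any other position of miR319a. It had 13.8% and 0.141% in chr2 and 4.52% and 7.98% in Col, against 0.530% and 0.433% in the chr2 and Col mocks. The replacing base was T in chr2 library 1 and Col library 1 and G in Col library 2. Position 164, an A of the shared block of the 3′ arm left unpaired in the fold, was the only one of miR319a above 1% in both libraries of a genotype with both mocks below it, apart from position 268. It had 0.0250% and 0.0272% in chr2 and 64.4% and 20.3% in Col, against 0.0112% and 0.0355% in the chr2 and Col mocks, so that the genotypes did not overlap. Non-overlapping rates were frequent: chr2 lay above Col at 19.5% and below it at 13.6% of the 2173 A and C positions of the series inside the primer ends, at 23 and 18 of 122 in miR319a and at 20 and 11 of 123 in miR319b. The base that replaced it was G in Col library 1 and T in Col library 2.

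In miR319b, 60 of the 121 A and C positions with both mocks at or below 1% passed 1% in at least 1 DMS library. Of these, 25 did so in 1 library, 14 in 2, 13 in 3 and 8 in all 4. In miR319a the same counts were 15, 2, 1 and 0. The share in a single library was 83.3% in miR319a, above that of each of the other 14 pri-miRNAs, which ran between 20.3% and 81.8%, and 41.7% in miR319b, against a median of 33.7% over those 14. The share in all 4 was 13.3% in miR319b, against a median of 11.9% and a highest value of 55.0% in the other pri-miRNAs and 66.4% to 87.1% in the mRNAs. This counts positions, which share their libraries and neighbours, and is given without a test.

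**Figure D2:**
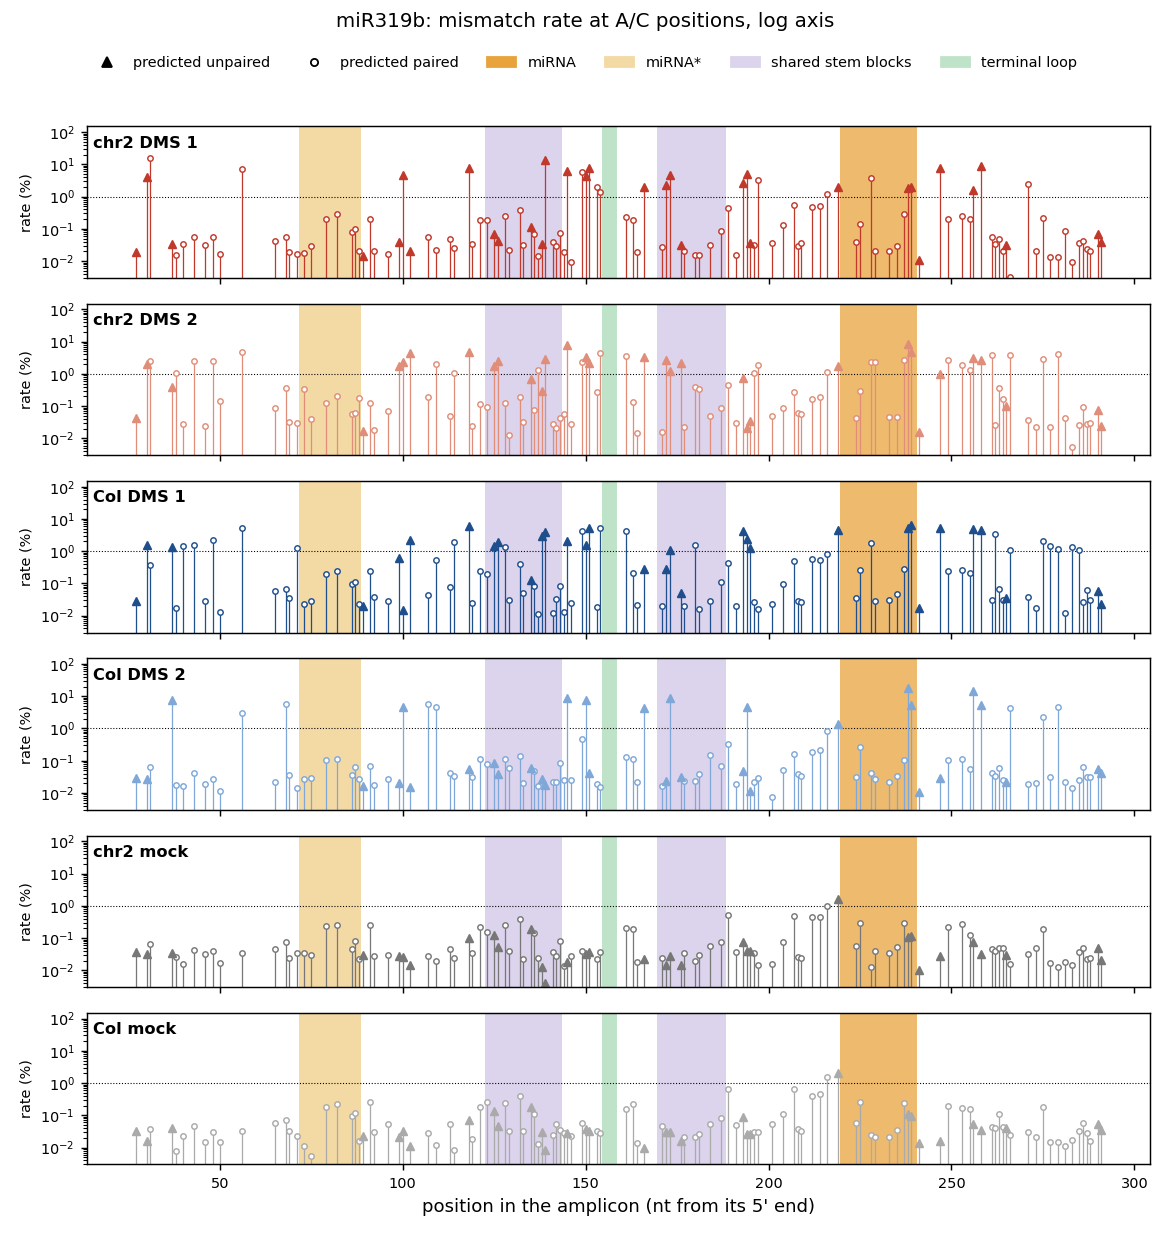
Mismatch rate (percent, log axis) of the A and C positions of miR319b inside the primer ends, drawn as for miR319a, by position in nt from the 5′ end of the amplicon, with a panel for each library. Between 19 and 44 positions stand above the dotted line of 1% in each DMS library, and 1 and 2 in the mocks.

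The 8 positions of miR319b above 1% in all 4 DMS libraries with both mocks at or below 1% were 56, 145, 150, 173, 238, 239, 256 and 258. Position 56, an A on the 5′ side of the amplicon that the fold pairs outside the hairpin, had 7.39% and 4.71% in chr2 and 5.38% and 3.05% in Col, against 0.0343% (95% Wilson interval 0.0211 to 0.0558) in the chr2 mock and 0.0332% (0.0204 to 0.0539) in the Col mock. Position 145, an unpaired A of the 5′ arm just above the shared block, had 6.11% and 7.67% in chr2 and 2.02% and 9.06% in Col, against 0.0179% and 0.0281% in the chr2 and Col mocks. Position 150 on the same arm had 4.23% and 3.30% in chr2 and 1.52% and 7.45% in Col. All 8 positions kept within an order of magnitude across the 4 DMS libraries and stood far above both mocks. Both traits follow in part from the choice of positions above 1% in all 4 with mocks at or below 1%. They are no separate sign of agreement.

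Position 173, in the shared block of the 3′ arm, had 4.52% and 1.21% in chr2 and 1.06% and 8.78% in Col. On the 3′ side of the amplicon, position 256 had 1.64% and 3.11% in chr2 and 4.74% and 14.3% in Col, and position 258 had 9.18% and 2.74% in chr2 and 4.70% and 5.54% in Col. Other positions were high in fewer libraries. Position 31 had 15.4% and 2.50% in chr2 and 0.373% and 0.0650% in Col. Position 139, base 17 of the shared block of the 5′ arm, had 13.2% and 2.85% in chr2 and 3.88% and 0.0174% in Col. Position 118 had 7.91% and 4.61% in chr2 and 6.25% and 0.0572% in Col. Col library 2 was low at the last 2 of these and at position 56 lowest of the 4, and it was the highest of the 4 at positions 145, 150, 173 and 256.

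The positions that passed 1% in both libraries of a genotype, and in no mock, are shown in capitals along the hairpin of miR319b, to let the 2 genotypes be read against each other.
miR319b, both chr2 DMS libraries: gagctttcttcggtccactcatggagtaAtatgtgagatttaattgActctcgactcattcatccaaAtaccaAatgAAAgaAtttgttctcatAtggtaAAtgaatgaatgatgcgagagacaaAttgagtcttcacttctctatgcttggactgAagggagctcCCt
miR319b, both Col DMS libraries: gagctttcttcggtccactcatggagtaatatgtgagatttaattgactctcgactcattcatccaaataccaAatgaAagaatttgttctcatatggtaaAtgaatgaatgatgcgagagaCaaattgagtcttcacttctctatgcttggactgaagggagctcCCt
The chr2 display marks 15 bases, 12 of them between the miRNA* and the miRNA and 3 in the miRNA. The Col display marks 6, of which 4 lie between the strands of the duplex and 2 in the miRNA, and 5 of the 6 are also marked in chr2. The library with the fewest positions above 1% had 27 in chr2 and 19 in Col, and these counts are given without a test. In miR319a the same display would mark position 164 for Col and no base for chr2.

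Replicates agreed more in miR319b than in miR319a at the high positions. In miR319a, 0 of the 7 positions above 1% in either chr2 library were so in both, and in Col 2 of 13 (15.4%) were, which is 22.2% of the 9 in library 1 and 33.3% of the 6 in library 2. In miR319b it was 22 of 49 in chr2 (44.9%), which is 81.5% of the 27 in library 1 and 50.0% of the 44 in library 2. In Col it was 14 of 45 (31.1%), or 35.0% of the 40 in library 1 and 73.7% of the 19 in library 2. Over the other 14 pri-miRNAs the shared percentage had a median of 33.03% in chr2 (0% to 76.9%) and 30.2% in Col (4.55% to 72.5%). In the mRNAs it was 81.4% to 92.4% in chr2 and 83.6% to 95.1% in Col. Among 16 pri-miRNAs miR319b ranked 7 in chr2 and 8 in Col, and miR319a ranked 15 in chr2 and 12 in Col.

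Libraries of different genotypes agreed about as much as replicates. For miR319b the shared percentage was 39.6% between chr2 library 1 and Col library 1, 31.3% between the second libraries, 35.3% between chr2 library 1 and Col library 2, and 44.8% between chr2 library 2 and Col library 1. Across the 123 positions of miR319b, Pearson's r between replicates was 0.43 in chr2 and 0.37 in Col, and Spearman's rho was 0.52 in chr2 and 0.44 in Col. Across the 122 positions of miR319a, r was -0.02 in chr2 and 0.23 in Col, and rho was 0.60 in chr2 and 0.57 in Col. The mocks of the 2 genotypes correlated at r = 0.97 in miR319a and 0.98 in miR319b. These are correlations across positions, which are not independent replicates and share the library, the base and the background error rate of each site, and they describe only.

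**Figure D3:**
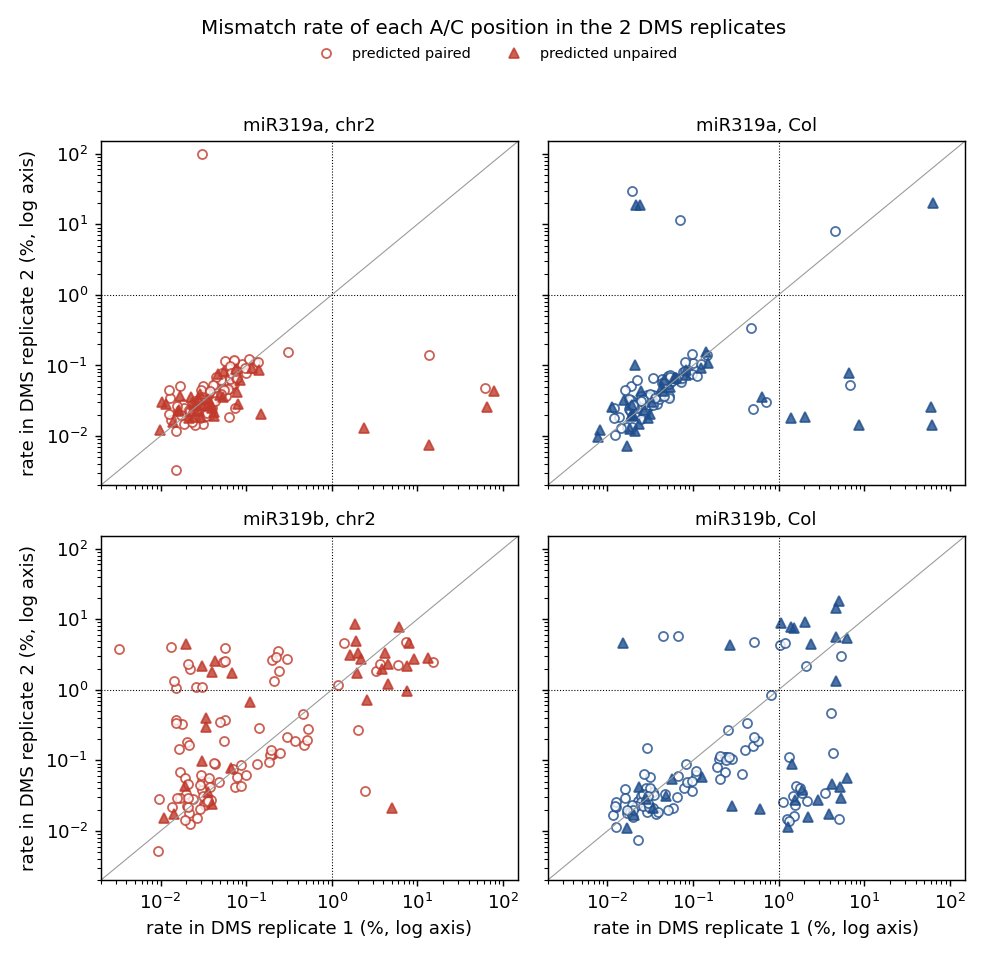
Mismatch rate of each A or C position in DMS replicate 1 (horizontal, percent, log axis) and DMS replicate 2 (vertical, percent, log axis), for miR319a in the upper and miR319b in the lower panels, chr2 on the left and Col on the right. Dotted lines mark 1%, the grey line marks equal rates, and the upper right corner, with both replicates above 1%, holds 0 and 2 positions of miR319a and 22 and 14 of miR319b before any limit on the mocks.

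**Figure D4:**
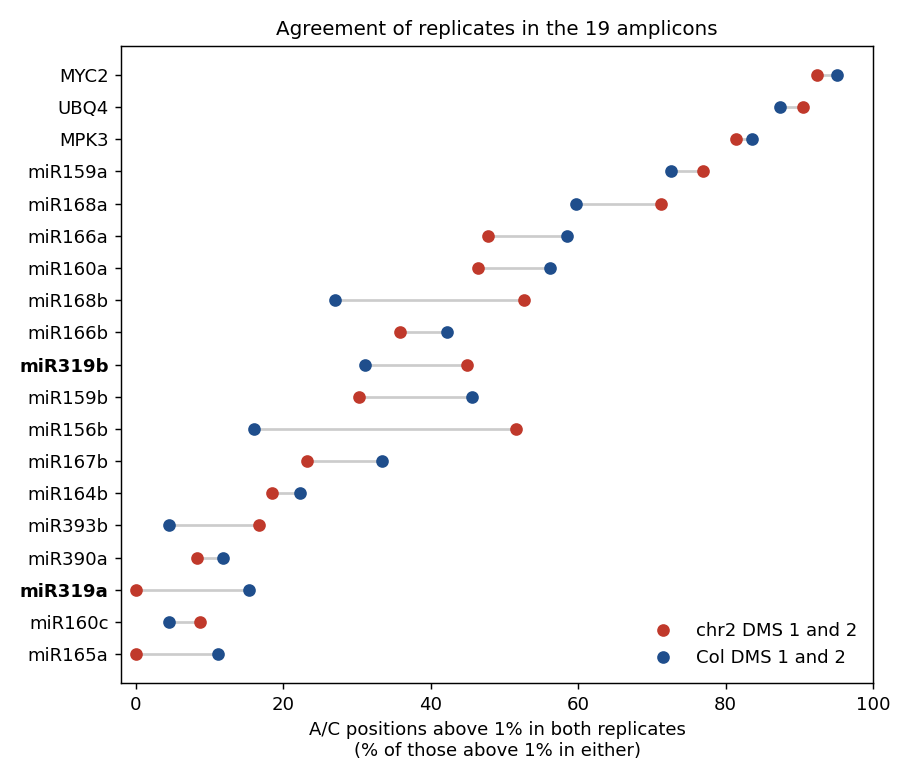
Share of A and C positions above 1% in both DMS replicates, in percent of those above 1% in either, for chr2 (red) and Col (blue) in each of the 19 amplicons. The mRNAs lie at 81.4% or more, miR319b at 44.9% and 31.1%, and miR319a at 0% and 15.4%.

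Over the A and C positions of miR319b inside the primer ends, those that the fold leaves unpaired had higher rates than those it pairs. The mean over 33 unpaired positions was 2.69% and 2.10% in chr2 and 2.17% and 2.78% in Col, and over 90 paired positions 0.559% and 0.744% in chr2 and 0.583% and 0.404% in Col. The ratio of the 2 means was 4.82 and 2.82 in chr2 and 3.73 and 6.87 in Col, against 0.949 and 0.975 in the chr2 and Col mocks. Within the hairpin it was 7.25 and 4.85 in chr2 and 5.07 and 10.5 in Col, against 0.982 and 0.994 in the chr2 and Col mocks. Of the unpaired positions 78.8% (26 of 33) passed 1% in at least 1 DMS library, and of the paired ones 40.0% (36 of 90), counting 2 positions whose mocks also passed it. The unpaired bases were thus higher in 4 of 4 DMS libraries and in neither mock. In miR319a the ratio of the means was 4.35 and 0.0279 in chr2 and 27.0 and 2.37 in Col, set by the few tall positions, with 12 of 39 unpaired and 6 of 83 paired positions above 1% in some library.

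The loop-proximal stem of miR319b averaged 1.23% and 1.05% in chr2 and 1.01% and 0.837% in Col, against 0.126% and 0.145% in the chr2 and Col mocks. Its 21 unpaired positions averaged 2.98% and 2.21% in chr2 and 2.02% and 1.93% in Col, and its 45 paired positions 0.412% and 0.507% in chr2 and 0.534% and 0.325% in Col. The terminal loop of miR319b holds no A or C in the fold, so the assay gave no value there. In steps of 21 nt counted from the duplex towards the loop, 5 of 9, 5 of 10, 7 of 16 and 2 of 2 positions of its 5′ arm passed 1% in some DMS library, and 2 of 9, 6 of 11 and 5 of 9 of its 3′ arm. The step of the 3′ arm next to the miRNA averaged 0.545% and 0.419% in chr2 and 0.808% and 0.320% in Col, against 0.458% and 0.584% in the chr2 and Col mocks, so that DMS libraries lay both above and below the mocks there. Position 219, the base just before the miRNA in this step, was also high without DMS, at 1.96% and 1.71% in chr2 with DMS and 4.68% and 1.34% in Col with DMS, against 1.64% and 2.00% in the chr2 and Col mocks. The step of the 5′ arm before the last averaged 2.37% and 1.31% in chr2 and 1.28% and 1.10% in Col, against 0.0685% in each mock.

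In miR319a no position of the 5′ arm passed 1% in any library, over steps of 8, 12 and 11 positions. On its 3′ arm 1 of 7, 1 of 10 and 2 of 8 positions passed, the last step holding positions 163 and 164. That step averaged 0.0403% and 0.0473% in chr2 and 8.08% and 4.93% in Col, against 0.0733% and 0.0773% in the chr2 and Col mocks. The terminal loop averaged 6.61% and 0.0355% in chr2 and 11.6% and 0.0315% in Col, against 0.0503% and 0.0464% in the chr2 and Col mocks. The replicates of a genotype thus lay on both sides of the mock level in the loop.

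The same 9 A and C bases of the miRNA were read in both hairpins, and they did not behave alike. In miR319a all 9 stayed between 0.0180% and 0.148% with DMS, and their mean was 0.0817% and 0.0590% in chr2 and 0.0774% and 0.0673% in Col, below the 0.140% and 0.106% of the chr2 and Col mocks. In miR319b their mean was 0.889% and 2.36% in chr2 and 1.54% and 2.64% in Col, against 0.113% and 0.0970% in the chr2 and Col mocks. Base 19 of the miRNA, a C at position 238 of miR319b, had 1.89% and 8.56% in chr2 and 5.12% and 17.9% in Col, against 0.109% and 0.112% in the chr2 and Col mocks. Base 20, a C at position 239, had 1.92% and 4.90% in chr2 and 6.33% and 5.37% in Col, against 0.117% and 0.0981% in the chr2 and Col mocks. In miR319a base 19 had 0.142% and 0.0869% in chr2 and 0.148% and 0.108% in Col, and base 20 had 0.0788% and 0.0417% in chr2 and 0.0826% and 0.0739% in Col. The fold left both bases unpaired in both precursors, and miR319b was the higher in 4 of 4 DMS libraries at each.

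Base 9 of the miRNA, an A paired in the fold of both precursors, had 3.64% and 2.34% in chr2 and 1.76% and 0.0402% in Col in miR319b. In miR319a it had 0.0750% and 0.0253% in chr2 and 0.0411% and 0.0374% in Col. Bases 10 and 18 of miR319b passed 1% in chr2 library 2 alone, at 2.33% and 2.70%. Bases 5, 6, 14 and 16 reached at most 0.289% with DMS in both precursors. The miRNA* strand had no position above 1% in miR319b (0 of 7), with means of 0.107% and 0.144% in chr2 and 0.103% and 0.0567% in Col, against 0.0998% and 0.0946% in the chr2 and Col mocks.

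**Figure D5:**
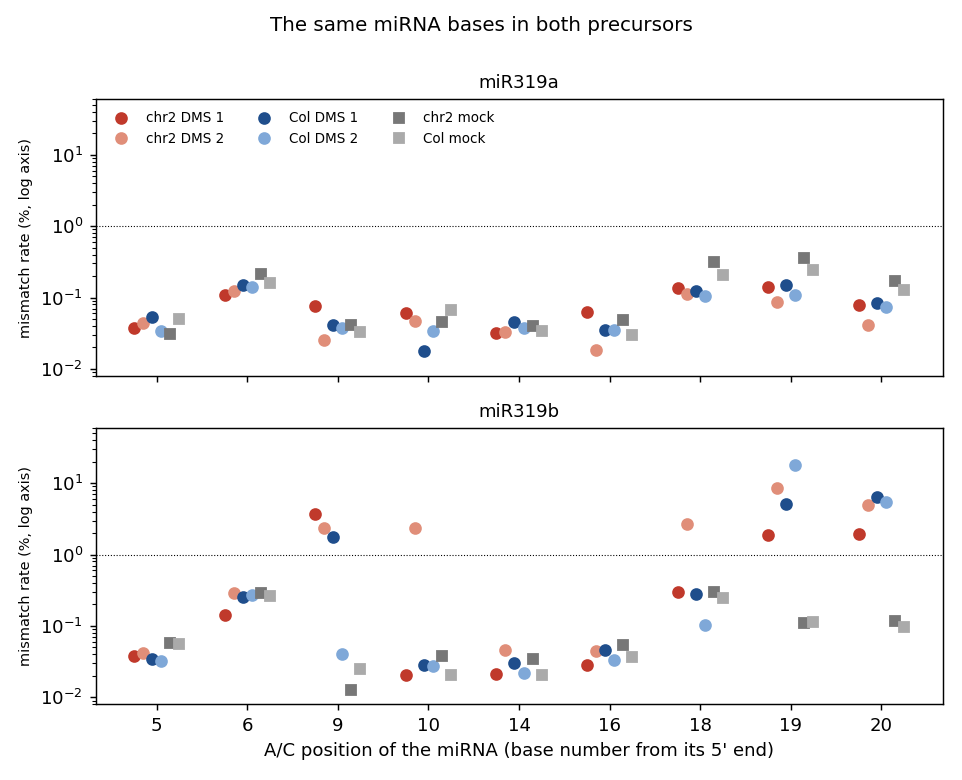
Mismatch rate (percent, log axis) at the 9 A and C bases of the miRNA, numbered from its 5′ end, in miR319a (upper panel) and miR319b (lower panel), with a marker for each of the 6 libraries and a dotted line at 1%. Bases 19 and 20 stand above the line in all 4 DMS libraries of miR319b, and no base does in miR319a.

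The shared blocks of the stem were compared the same way. In the block of the 5′ arm, 0 of 15 positions passed 1% in miR319a and 6 of 15 did in miR319b, with a highest rate of 0.128% in miR319a and 13.2% in miR319b. In the block of the 3′ arm, 2 of 9 passed in miR319a and 4 of 9 in miR319b. Bases 3 and 4 of that block, both A, are positions 163 and 164 of miR319a and 172 and 173 of miR319b. Position 163 had 0.0161% and 0.0226% in chr2 and 0.0240% and 18.9% in Col, and position 172 had 2.22% and 2.71% in chr2 and 0.286% and 0.0229% in Col. At this base miR319a was high in a Col library and miR319b in both chr2 libraries.

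The replacing base at the high positions differed between the precursors. Of the 22 values above 1% at A or C in miR319a, all 22 had more than 95% of their mismatches to a single base, with a median of 99.9% and a lowest value of 97.8%. In miR319b 87 of 124 values did (70.2%), with a median of 99.01% and a lowest value of 39.7%. Positions with a mock above 1%, 216 and 219 of miR319b, were left out of these values and of the replacing bases counted below. In the mocks the median over all positions was 62.2% in miR319a and 66.7% in miR319b. Mismatches at A went mostly to T, in 12 of 14 values in miR319a and 70 of 98 in miR319b, and those at C mostly to T in miR319a (7 of 8), while in miR319b they went to T in 11 of 26, to A in 9 and to G in 6. At 14 of the 35 positions of miR319b above 1% in several libraries, and at 2 of 3 in miR319a, the leading replacing base was not the same in each of those libraries. Base 19 of the miRNA in miR319b, for example, was replaced by G and A in chr2 libraries 1 and 2 and by A and G in Col libraries 1 and 2. What set the base in each library was not tested.

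Tested position by position against the mock, few miR319 bases passed. In edgeR's quasi-likelihood fit, adjusted by Benjamini-Hochberg over all 2597 A and C positions, DMS raised the rate in chr2 at 0 of 147 positions of miR319a and 2 of 143 of miR319b (1.4%), where 13.0% of all positions were called higher and 0.0770% lower. In Col it raised 0 of 147 and 1 of 143 (0.699%), where 13.2% of all positions were called higher and 0.0770% lower. All these shares were under the background of the series, which includes the 3 mRNAs. Each mRNA had 78 to 108 positions above 1% in all 4 DMS libraries, with both mocks at or below 1%. The other 14 pri-miRNAs had a median of 7.5 such positions, miR319b had 8 and miR319a 0. Each mock arm was 1 library, so the spread in these tests came from the DMS pairs alone and the mocks were assumed to vary like them. At an unadjusted p under 0.05 by edgeR, chr2 had 2 higher and 18 lower positions in miR319a and 11 and 1 in miR319b. Over all 2597 positions chr2 had 629 higher and 46 lower. Col had 4 and 9 in miR319a and 9 and 1 in miR319b, and 616 and 26 over all positions. The share of lower positions in miR319a was thus above that of the series in both genotypes. The median log2 fold change of DMS over mock was -0.24 in chr2 and -0.15 in Col over the 147 positions of miR319a, and 0.81 in chr2 and 0.34 in Col over the 143 of miR319b. These tests, counts and medians include positions of the primer ends, which the rates above leave out. Without the ends 122 positions of miR319a and 123 of miR319b were tested. In each genotype edgeR then called 0 and 2 of them higher. The unadjusted counts and the medians were not computed without the ends.

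Position 56 of miR319b passed in both genotypes, with a log2 fold change of 7.45 in chr2 (adjusted p = 0.0390 by edgeR) and 6.98 in Col (adjusted p = 0.0403 by edgeR), and it was higher in 4 of 4 DMS libraries than in the mocks. The other call was position 197, an A of the 3′ arm that the fold pairs, which passed in chr2 alone. It had 3.33% and 1.83% in chr2 with DMS and 0.0159% and 0.0297% in Col with DMS, against 0.0150% (95% Wilson interval 0.00509 to 0.0440) in the chr2 mock and 0.0310% (0.0142 to 0.0675) in the Col mock. The log2 fold change over mock was 7.38 in chr2 (adjusted p = 0.0353 by edgeR) and -0.44 in Col (adjusted p = 0.796 by edgeR). The smallest adjusted p of miR319a was 0.0777 in chr2 and 0.0572 in Col by edgeR, the value in Col being that of position 164. Both calls in miR319b ended when any 1 DMS library was left out, when the replicate number was a block or when a size factor was used, each of which left no call at any position of the series.

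DESeq2 called more, at 5 higher and 9 lower positions of miR319a and 34 higher of miR319b in chr2, where it called 38.9% of all positions higher and 0.539% lower. In Col it called 10 higher and 3 lower in miR319a and 36 higher in miR319b, where it called 38.2% higher and 0.193% lower. Of its higher calls in miR319a, 5 of 5 in chr2 and 9 of 10 in Col were above 1% in only 1 DMS library. All 9 and all 3 of its lower calls were at C. As shares of the positions tested, the higher calls were 3.40% in miR319a and 23.8% in miR319b in chr2. In Col they were 6.80% and 25.2%, and all of these were under the background of the series, mRNAs included. The lower calls of miR319a were above it, at 9 of 147 positions in chr2 against 14 of 2597 over the series. In Col they were 3 of 147 against 5 of 2597.

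Between the genotypes, no position of either precursor passed. By edgeR with Benjamini-Hochberg adjustment, chr2 differed from Col with DMS at 0 of 147 positions of miR319a and 0 of 143 of miR319b, and 0% of 2594 positions were called in either direction over the series. At an unadjusted p under 0.05, 4 positions of miR319a were higher and 1 lower in chr2, and 4 of miR319b were higher, where 59 were higher and 51 lower over all positions. DESeq2 called 4 higher and 11 lower in miR319a and 10 higher and 6 lower in miR319b, where it called 5.98% of all positions higher and 5.74% lower, and most of these were above 1% in a single library (4 of 4, 10 of 11, 7 of 10 and 5 of 6). The smallest p of miR319b was that of position 197, with a log2 difference of 6.74 (adjusted p = 0.254 by edgeR), and both chr2 libraries lay above both Col libraries. The smallest p of miR319a was that of position 164, with a log2 difference of -10.68 (adjusted p = 0.254 by edgeR), where both chr2 libraries lay below both Col libraries.

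The next positions in this order showed larger spread or very low rates. In miR319b, position 153 had 2.02% and 0.273% in chr2 and 0.0184% and 0.0187% in Col, and position 281 had 0.0869% and 0.0427% in chr2 and 0.0123% and 0.0224% in Col. In the other direction, position 37 had 0.0343% and 0.394% in chr2 and 1.38% and 7.76% in Col, while positions 277 and 283 were high in Col library 1 alone, at 1.48% and 1.33%. In miR319a, position 175 had 0.0411% and 0.0535% in chr2 and 0.0273% and 0.0209% in Col, below the chr2 mock at 0.109%. Positions 66 and 168 reached at most 0.0446% in the 4 DMS libraries, and position 143 was high in Col library 1 alone, at 8.60%.

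As single values per library, the mean A and C rate of miR319b was 1.12% ± 0.0174 in chr2 and 1.03% ± 0.0216 in Col (SD, n = 2 each), a ratio of 1.09. The libraries did not overlap. Nor did they in 68.4% of the 19 amplicons, with chr2 above Col in 63.2% and below it in 5.26%. The two-sided exact permutation p was 0.333, the smallest that 2 libraries against 2 can give. In miR319a it was 1.41% ± 0.780 in chr2 and 1.38% ± 0.637 in Col (SD, n = 2 each), a ratio of 1.03 with an exact p of 1. The ratio of miR319a turned to 0.314 when positions above 50% in any library were left out, and ran between 0.626 and 1.52 when a DMS library was left out. That of miR319b turned to 0.966 when rates were scaled by the mRNAs, whose factors were 1.06 and 1.07 in chr2 and 0.927 and 0.954 in Col. Of 44 regions and steps compared between the genotypes, 13 did not overlap (31.8% of 22 in miR319a and 27.3% of 22 in miR319b). None could go below an exact permutation p of 0.333. Over the series 33.1% of single A and C positions did not overlap, and 68.4% of the 19 amplicon means. The share over regions of the other amplicons was not computed, so these counts are no result about these hairpins.

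The 13 regions ran in both directions, some of them nested in one another. In miR319a chr2 lay above Col in 4 and below it in 3, and in miR319b above it in 6. In miR319a the 3′ side of the amplicon averaged 3.92% ± 0.151 in chr2 and 1.19% ± 1.19 in Col (SD, n = 2 each). The predicted paired positions averaged 1.10% ± 0.214 in chr2 and 0.421% ± 0.318 in Col. No position of miR319a passed 1% in both chr2 libraries, and in library 2 position 262, which the fold pairs, was alone above it. With the maximum expected accuracy fold, the alternative, the order reversed, as the paired positions of miR319a averaged 0.0504% in chr2 and 0.310% in Col. The unpaired positions of its stem averaged 0.0379% ± 0.00200 in chr2 and 4.12% ± 0.296 in Col (SD, n = 2 each), from 3 of 15 positions, 163, 164 and 184, of which only position 164 was high in both Col libraries. In miR319b the whole stem averaged 1.14% ± 0.127 in chr2 and 0.922% ± 0.120 in Col (SD, n = 2 each).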

How the data were processed

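Per the labels' protocols, nuclear RNA was reverse transcribed with gene-specific primers and TGIRT-III, amplified with KOD polymerase, mixed in equal amounts and fragmented. The deposited files hold counts of A, C, G and T calls per amplicon position with the reference base, per the file headers. Tools named in the submitters' processing notes are SAMtools 1.5, Picard, BWA and cutadapt, with roles and build not given in the sources used here. The labels mention no molecular identifiers. Repeated header lines were dropped. Coverage was the sum of the 4 counts and the mismatch rate the share of calls other than the reference.

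Tests took positions covered at least 100 times in every library, with at least 10 mismatches in all and mock rates up to 5%. Primer ends were kept in these tests and left out of means, regions and agreement. Mismatch counts were tested with edgeR 4.0.16 (R 4.3.3, quasi-likelihood, log coverage as offset), fitted on all amplicons: DMS against mock over 6 libraries, and chr2 against Col over the 4 DMS libraries with a size factor per library (0.966 to 1.02). The threshold was an adjusted p of 0.05. Exact permutation over libraries was used for means and regions, with SciPy 1.17.1 (Python 3.11.15). Intervals are 95% Wilson. Folds came from ViennaRNA 2.7.2. The miRNA was located from the sequence shared by both amplicons, since a table of mature miRNAs was not used here, where RefSeq's had been planned. The miRNA* is its predicted partner.

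Named positions are those past an edgeR test, the 5 highest mean rates per precursor and genotype, the 3 smallest p in each direction between genotypes, and the A and C of the miRNA. Positions above 1% in all 4 DMS libraries, the 2 neighbours in the shared block of the 3′ arm, and position 150 of miR319b were named after their values were seen. The members and lists were chosen with earlier results of these data known. Whether replicate numbers pair libraries was checked by the correlation of their deviations, which was 0.0206 over 2594 positions, so no pairing was used. Alternatives were DESeq2 1.42.0, other minimums and mock limits, primer ends, size factors, a replicate block, another fold, and leaving out each DMS library.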

Additional observations from a re-analysis of the deposited data

Results flagged for a closer look

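G and T positions, which DMS does not read out at the pairing face in this assay, had only their means given above. Single positions are given here because some passed 1% in a DMS library. In miR319a 3 of 134 G and T positions did, each in a single library. Position 177, a G of the 3′ arm, had 20.7% in chr2 library 1. Position 253, a T beyond the miRNA, had 99.9% in chr2 library 2, the library in which position 262 also reached 99.9%. Position 30, a T near the 5′ end, had 19.5% in Col library 2. All 3 were at most 0.0606% in the other DMS libraries and in the mocks. In miR319b 19 of 143 did, again each in a single library and with a highest rate of 6.68%, and 0 passed in all 4. The same rate was passed by 3 G and T positions of miR319a and 1 of miR319b in a mock. edgeR called no G or T position of either precursor in any comparison, and none over the series. There it called 0 of 2840 against mock in each genotype and 0 of 2833 between the genotypes. At an unadjusted p under 0.05 by edgeR, chr2 over mock had 30 of 157 in miR319a, 4 higher and 26 lower. In miR319b it had 4 of 171, 3 higher and 1 lower. Col over mock had 29 in miR319a, 3 higher and 26 lower, and 3 in miR319b, 1 higher and 2 lower. Over the 2840 G and T positions of the series, 74 were higher and 134 lower in chr2, and 73 and 117 in Col. No cause was tested.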

How the results depend on the processing

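Over all results and alternatives, 104 values kept their direction and side of the threshold, 12 lost and 7 gained calls, 6 reversed and 1 moved. The 104 include counts of 0 above mock for miR319a with a replicate block, a size factor over A and C positions or a DMS library left out. They also include the edgeR counts of 0 between the genotypes, where the main fit called 0 positions of the series too. All those fits called 0 positions of the series, so these values say nothing of stability. The 2 calls of miR319b above mock in chr2 and its 1 call in Col became 0 with a replicate block, 0 with a size factor over A and C positions and 0 to 0 without each DMS library in turn. In these fits edgeR called 0 positions of the whole series, against 339 in chr2 and 346 in Col in the main fits. They thus do not single out miR319. Without the primer ends Col had 2 calls in miR319b. DESeq2 gave 14 and 34 calls in miR319a and miR319b in chr2, 13 and 36 in Col, and 15 and 16 between the genotypes. The ratio of mean rates, chr2 over Col, was 1.03 in miR319a and reversed to 0.999 with the size factor over A and C positions, 0.904 with that of the mRNAs and 0.314 without positions above 50%, and ran between 0.626 and 1.52 without each library in turn. In miR319b it was 1.09, 0.966 with the factor of the mRNAs and 1.08 to 1.11 without each library. The mean of the predicted paired positions of miR319a in chr2 was 0.0504% with the maximum expected accuracy fold, against 1.10%, as that fold leaves the tall positions unpaired. The cause of the other changes was not tested. Each DMS rate rests on at least 7561 calls, but how many RNA molecules gave them is unknown, and 2 DMS libraries and 1 mock per genotype limit every comparison.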
